A study of Mus musculus with 18 samples.

Results

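The comparison described here set 6 skin-rich tumor pieces against 6 skin-poor ones, out of 18 B16F10 tumors, with the sides drawn by keratin expression and not by treatment. Each tumor received a skin score, the mean log2(FPKM + 1) of Krt5, Krt14 and Krt10, where FPKM is the number of sequenced fragments of a gene per kilobase of its length, relative to all fragments of the tumor. The 6 highest and the 6 lowest scores made the sides, and the other 6 tumors lay between them. Because the sides were chosen on values measured in the same libraries, the differences between them are a description, without a test. Krt5, Krt14 and Krt10 serve only as this score and are left out of the genes compared below.

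B16F10 is a mouse melanoma cell line, and it was grown under the flank skin of C57BL/6 mice, all of them female. From day 6, at a tumor volume of about 50 mm3, intratumoral injections of PBS or 1 of 5 formulations were given at intervals of 2 days, and tissue was taken 48 h after the final one. The groups, of 3 tumors each, received PBS, Free PS473 (a Pistol ribozyme against the mRNA of PD-L1, without a carrier), PS473@CPs (PS473 on a cationic polymer carrier), PS473@NKMOF-101-[Mn] (PS473 in a manganese metal-organic framework), the same framework with an inactive ribozyme (M5@NKMOF-101-[Mn]) or the empty framework (NKMOF-101-[Mn]). All tumors therefore share the cell line, the site under the skin and the repeated needle injections. The framework number in some titles is not that of the treatment description, which was followed here. Poly(A) RNA of whole tumor tissue was sequenced, and nothing says how much overlying skin was trimmed from a piece, or that cells were sorted.

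Skin epithelium is a layered tissue. Basal keratinocytes, which carry Krt5 and Krt14, divide on the basement membrane, and their daughters move outward, switch to Krt1 and Krt10, and end as flat cells sealed in a crosslinked cornified envelope and in lipids. Hair follicles and sebaceous glands are outgrowths of the same epithelium, and wounded or inflamed epidermis turns on a further set of keratins, Krt6a, Krt6b, Krt16 and Krt17. Melanoma cells derive from melanocytes and make pigment proteins in place of these keratins.

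The skin score ran from 8.75 to 0. In falling order, the skin-rich tumors were PS473@CPs 2 (8.75), PBS 2 (8.11), NKMOF-101-[Mn] 1 (7.31), PBS 3 (7.16), then M5@NKMOF-101-[Mn] 3 (5.75) and, with a score of 5.60, PS473@NKMOF-101-[Mn] 2. The 6 tumors between the sides were Free PS473 3 (4.77), PS473@CPs 3 (3.90), NKMOF-101-[Mn] 3 (3.60), PS473@NKMOF-101-[Mn] 3 (1.61), followed by M5@NKMOF-101-[Mn] 2 (0.145) and, with a score of 0.127, PS473@NKMOF-101-[Mn] 1. The skin-poor tumors were PS473@CPs 1 (0.0160), NKMOF-101-[Mn] 2 (0.00745), Free PS473 2 (0.00647), Free PS473 1 (0.00207), PBS 1 and M5@NKMOF-101-[Mn] 1, the last pair at 0. At the upper limit the score thus passed from 5.60 to 4.77, with no gap, and at the lower limit from 0.127 to 0.0160. Below, values of the skin-rich and of the middle tumors are listed in this order.

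**Figure D1:**
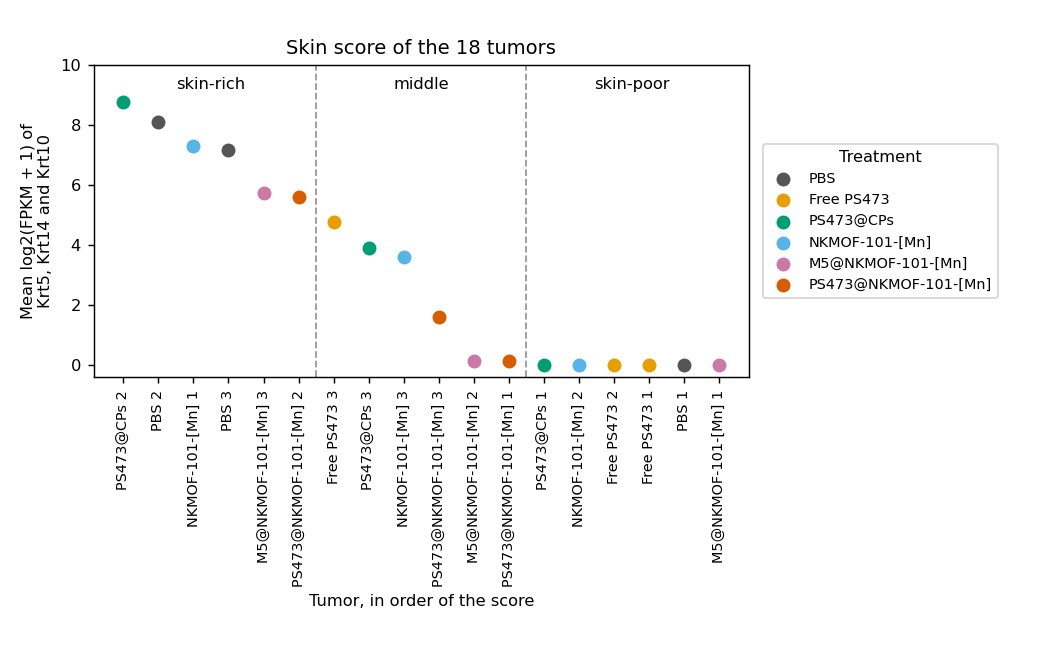
Skin score (mean log2(FPKM + 1) of Krt5, Krt14 and Krt10, vertical axis) of each of the 18 tumors, in falling order and colored by treatment, with dashed lines between the skin-rich, middle and skin-poor tumors. Scores fall from 8.75 to 5.60 in the skin-rich tumors, from 4.77 to 0.127 in the middle ones and lie at or below 0.0160 in the skin-poor ones.

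Of the 6 treatments, 4 had tumors on both sides. PBS had 2 skin-rich tumors and 1 skin-poor tumor, Free PS473 had 2 skin-poor tumors and 1 between the sides, and PS473@NKMOF-101-[Mn] had 1 skin-rich tumor and 2 between the sides. The remaining 3 treatments each had 1 tumor on either side and 1 between. Scores ran widely within treatments: the 3 PBS tumors alone ran from 0 to 8.11, and the 3 PS473@CPs tumors from 0.0160 to 8.75. Of the 9 framework tumors 3 were skin-rich and 2 skin-poor, and of the other 9 tumors 3 were skin-rich and 4 skin-poor.

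Across the genes, 12354 averaged 1 FPKM or more across the 18 tumors and were measured. A gene is counted below as higher when its 6 skin-rich values all lay above its 6 skin-poor values and the means of log2(FPKM + 1) differed by more than 1. This held for 219 genes, 1.77% of those measured, and the reverse held for 0 genes (0.0%). Without a minimum difference, 311 genes (2.52%) lay higher in every skin-rich than in every skin-poor tumor, and 82 genes (0.664%) lay lower. The median difference over all 12354 genes was -0.04. The filter on mean expression favors genes that are high on 1 side, and without it 319 of 31283 genes above 0 in any tumor (1.02%) were counted as higher. Of the 219 genes, 55 were listed at 0 in all 6 skin-poor tumors and 170 stayed below 1 FPKM in each of them. The tumors between the sides had a mean between those of the sides for 218 of the 219 genes. Their keratin scores also lay between, and their values entered the filter, so this is no separate support. In the tissue as a whole, fewer cells of a type and less RNA per cell cannot be told apart.

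The 219 genes took 0.231% to 2.28% of all fragments in the skin-rich tumors and 0.0278% to 0.0607% in the skin-poor ones. Middle tumors ranged from 0.0431% to 0.380%, so they overlapped with both sides. Free PS473 3, at 0.380%, exceeded the skin-rich tumors PS473@NKMOF-101-[Mn] 2 (0.231%) and, at 0.287%, M5@NKMOF-101-[Mn] 3. Its median log2(FPKM + 1) over the 219 genes was 1.96, against 1.36 and 1.60 in that pair. High levels of these genes were thus not confined to the skin-rich side. The table gives no depth, and the steps of the low values put it at an estimated 17212000 to 28401000 fragments a tumor. Skin-rich tumors had an estimated 19504000 to 24538000 and skin-poor tumors 17212000 to 25653000, so depth overlapped between the sides. A list of 18 melanocyte and pigment genes took 1.96% to 3.14% of fragments in the skin-rich tumors and 2.08% to 3.00% in the skin-poor ones, which shows the melanoma signature of the labelled cell line on both sides.

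The largest differences belonged to keratins. Krt16, a keratin of wounded and thickened epidermis and of the follicle, had 803, 1133, 151, 308, 74.7 and 10.0 FPKM in the skin-rich tumors and was listed at 0 in all 6 skin-poor tumors, a difference of 7.50 on the log2(FPKM + 1) scale (SD 2.46 among the skin-rich tumors). PBS 2 had the highest and PS473@NKMOF-101-[Mn] 2 the lowest value of the skin-rich side, and all 6 lay above the skin-poor side. Krt1, the partner of Krt10 in suprabasal cells, had 296, 246, 169.8, 103, 109 and 79.3 FPKM there and was likewise listed at 0 in every skin-poor tumor, a difference of 7.23 (SD 0.75). Krt1 varied far less among the skin-rich tumors than Krt16, and the order of the tumors was another.

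Krt6a, Krt6b and Krt17, further keratins of wounded epidermis, followed Krt16. Krt6a had 785, 894, 129, 237, 42.9 and 10.9 FPKM in the skin-rich tumors and 0 to 0.00993 FPKM in the skin-poor ones. Krt6b ran from 3.57 to 1000.5 FPKM and Krt17 from 19.6 to 1198 FPKM in the skin-rich tumors, against at most 0.0401 and 0.0517 FPKM in the skin-poor ones. The differences were 7.23, 6.99 and 6.95. In the skin-poor tumors all 3 genes were above 0 in NKMOF-101-[Mn] 2 alone. Krt6a and Krt6b are near-identical copies, as are parts of Krt16 and Krt17, so their reads may have been split between them. Gm49428, a gene model without an assigned function, had 2.82 to 244 FPKM in the skin-rich tumors and at most 0.0123 FPKM in the skin-poor ones (difference 5.42).

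The rest of the 15 largest differences were genes of adhesion, differentiation and the cornified layer. Perp, a desmosome protein and p53 target, had 246, 275, 83.1, 68.5, 28.7 and 20.4 FPKM in the skin-rich tumors and 0.0261 to 0.122 FPKM in the skin-poor ones (difference 6.21). Calm4, a calmodulin-like protein of skin, had 211, 222, 84.1, 83.5, 50.9 and 28.1 FPKM against 0 in all skin-poor tumors (difference 6.48). Loricrin, the main protein of the cornified envelope, had 43.7, 72.9, 151, 66.7, 42.9 and 53.3 FPKM against 0 to 0.0279 FPKM (difference 6.03). Loricrin was highest in NKMOF-101-[Mn] 1 and not in the tumors with the highest score. Krtdap, Sprr1a, Ly6d and Dmkn, all products of differentiating keratinocytes, differed by 5.97, 5.67, 5.60 and 5.36, and the cystatin A-like genes Cstdc5 and Stfa3 by 6.82 and 5.25. The last pair belongs to a family of near-identical copies, and the values of single members are uncertain.

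**Figure D2:**
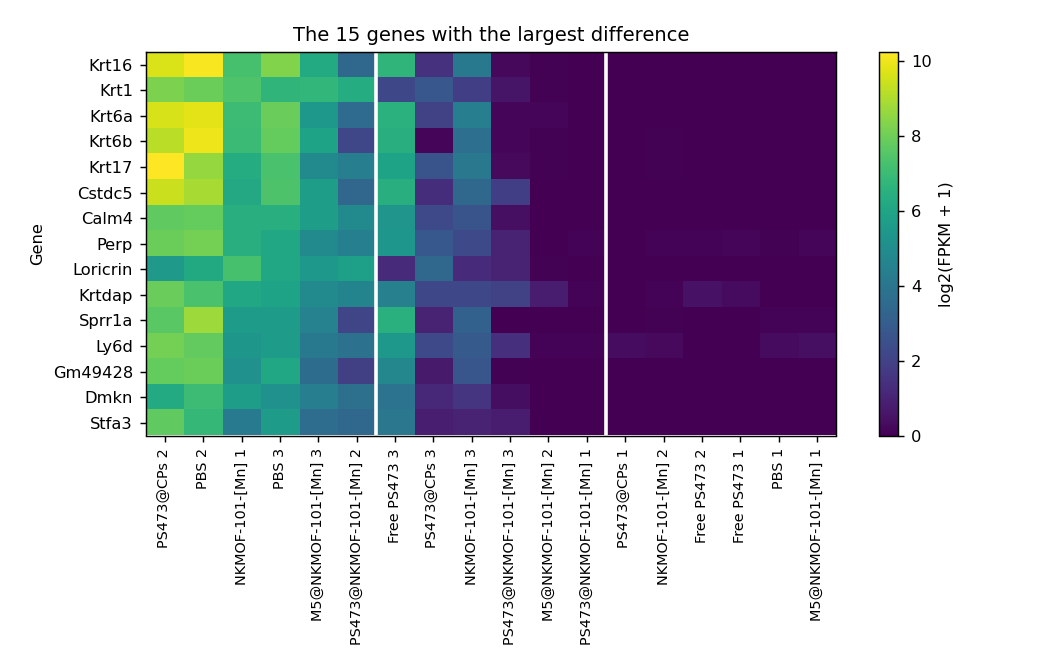
Level, as log2(FPKM + 1), of the 15 genes with the largest difference between the sides (rows) in each of the 18 tumors (columns, in the order of the skin score). All 15 are higher in each skin-rich tumor than in the skin-poor ones, where they lie near 0, and Krt16 is high but Krt1 and Loricrin are low in Free PS473 3.

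The promoters of the genes counted as higher were searched for the motifs TATAAA and TGANTCA. RefSeq promoter sequences of mouse build GRCm38.p6 were at hand for 143 of the 219 genes, with 165 promoters, and for 8 of the 15 with the largest differences. The 100 bases before the start of 4 of these 8 are printed here, chosen after the motif matches were seen, to show the matches and 1 promoter without them. Capitals mark TATAAA and TGANTCA, the latter a motif known for AP-1 factors, which reads the same on both strands.
Loricrin, chr3:92083143-92083242, minus strand: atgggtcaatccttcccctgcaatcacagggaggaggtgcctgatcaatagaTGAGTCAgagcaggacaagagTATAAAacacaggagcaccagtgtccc
Krtdap, chr7:30787805-30787904, plus strand: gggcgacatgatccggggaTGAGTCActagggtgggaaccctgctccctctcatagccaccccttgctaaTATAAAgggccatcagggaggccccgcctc
Sprr1a, chr3:92485882-92485981, minus strand: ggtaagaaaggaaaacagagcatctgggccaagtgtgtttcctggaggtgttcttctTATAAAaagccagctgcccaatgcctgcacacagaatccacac
Calm4, chr13:3837657-3837756, plus strand: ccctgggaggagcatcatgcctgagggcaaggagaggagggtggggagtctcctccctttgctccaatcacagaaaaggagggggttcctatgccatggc
The TATAAA match begins at -27 in Loricrin, -30 in Krtdap and -43 in Sprr1a, counted back from the start. Searched on both strands over the 250 bases before the start, TGANTCA was present in 32 of the 165 promoters (19.4%), in 4.3% of the promoters of the other genes measured and in 6.7% of all 32851 promoters. TATAAA was present in 30 of the 165 (18.2%), in 6.3% of those of the other genes measured and in 12.4% of all. These shares are a description of letters in a window, not of bound factors. Some genes have more than 1 promoter and some are neighboring members of a family, so the promoters are not separate cases.

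Genes of basal keratinocytes, which anchor the epidermis to the basement membrane, were higher for 15 of the 18 list members measured (median difference 2.16, against -0.04 for all genes). With the members under the filter it was 17 of 20. Of all genes, 1.77% of those measured were counted as higher, and 1.02% without the filter. Col17a1, a collagen of the hemidesmosome, had 67.9, 52.5, 21.9, 21.6, 6.57 and 6.68 FPKM in the skin-rich tumors and 0.0245 to 0.0992 FPKM in the skin-poor ones (difference 4.39). Sfn, the 14-3-3 protein of stratified epithelia, had 611, 344, 73.5, 130.5, 27.6 and 21.0 FPKM against 1.69 to 3.29 FPKM (difference 4.89). Trp63, the transcription factor that specifies stratified epithelium, had 7.89, 5.39, 1.86, 2.04, 0.536 and 0.499 FPKM against at most 0.00767 FPKM (difference 1.69). The 3 members not counted were present on both sides: Itga6 at 9.12 to 26.3 against 6.56 to 11.6 FPKM, Dst at 8.27 to 15.3 against 9.36 to 14.4 FPKM, and Tfap2a at 7.15 to 10.6 against 8.48 to 9.90 FPKM.

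Suprabasal genes, those of cells that have left the basement membrane, were higher for 18 of 19 members measured (1.77% of all genes measured were). Without the filter it was 19 of 23 (1.02% of all), and the median difference of those measured was 2.92. Dsp, which links desmosomes to keratin filaments, had 52.9, 120.3, 32.3, 27.1, 10.3 and 6.47 FPKM in the skin-rich tumors against 0.0297 to 0.147 FPKM in the skin-poor ones (difference 4.72). Lypd3, a surface protein of suprabasal cells, ran from 4.31 to 122 FPKM against 0 in all skin-poor tumors. Klf4, a transcription factor of barrier formation, ran from 1.57 to 16.2 against 0.530 to 1.03 FPKM (difference 1.80). Notch3 overlapped between the sides, at 1.66 to 7.42 against 1.27 to 2.70 FPKM. Krt2, a keratin of upper layers in tail and foot skin, did not exceed 0.0815 FPKM in any tumor.

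Cornified envelope genes were higher for all 24 members measured (1.77% of all genes measured were). Without the filter it was 28 of 35 (1.02% of all), and the median difference of those measured was 2.39. Toward the upper end of the list, Asprv1, a protease that processes filaggrin, had 35.6, 97.4, 39.7, 32.6, 19.6 and 10.1 FPKM in the skin-rich tumors against 0 to 0.440 FPKM. Klk7, a protease of desquamation, ran from 4.83 to 84.2 FPKM against 0 in all skin-poor tumors. Cnfn, cornifelin, ran from 4.01 to 117 FPKM, also against 0. Flg, profilaggrin, was much lower, with 1.71, 6.22, 4.24, 1.52, 1.84 and 1.42 FPKM in the skin-rich tumors and 0 in the skin-poor ones (difference 1.80), and Ivl, involucrin, ran from 0.866 to 3.37 FPKM. Flg2 and Hrnr, related to profilaggrin, did not overlap but differed by 0.45 and 0.45. Of the 35 genes, 21 were listed at 0 in all 6 skin-poor tumors.

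Among genes of barrier lipids, 3 of 6 measured were higher, against 1.77% of all genes measured. Without the filter it was 8 of 17 (1.02% of all), and the median difference of those measured was 1.02. Elovl4, which lengthens the very long acyl chains of skin ceramides, had 49.8, 33.1, 24.2, 15.8, 6.27 and 9.43 FPKM in the skin-rich tumors against 1.24 to 1.68 FPKM (difference 2.96). Alox12b, a lipoxygenase of the lipid envelope, ran from 0.588 to 11.5 FPKM against 0. Abca12, the transporter that loads lamellar granules, overlapped between the sides, at 6.56 to 13.8 against 6.32 to 10.1 FPKM, with a difference of 0.17. Elovl1 and Abhd5 also overlapped, with differences of 0.37 and 0.30.

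**Figure D3:**
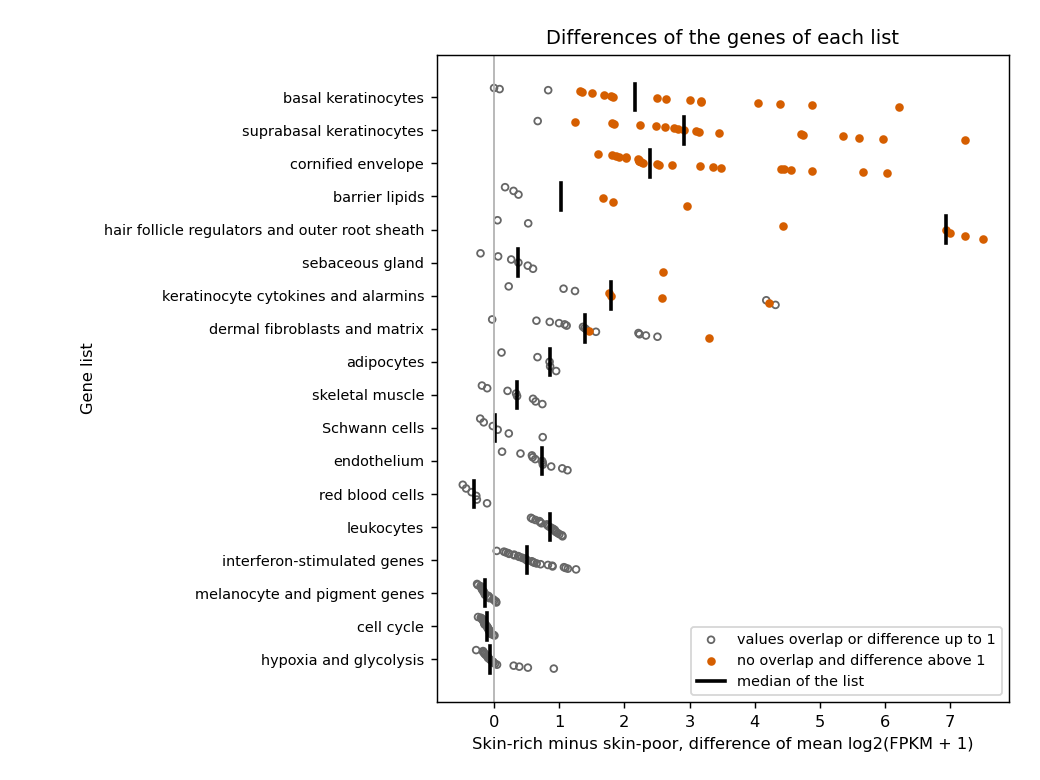
Difference between the sides (skin-rich minus skin-poor, mean log2(FPKM + 1), horizontal axis) of each measured gene of the lists with at least 5 measured genes (rows), filled where the 6 values of either side do not overlap and the difference exceeds 1, with the median of each list as a bar. The lists of basal, suprabasal and cornified keratinocytes stand right of 0, with medians of 2.16, 2.92 and 2.39, and the melanocyte, cell cycle and hypoxia lists lie around 0.

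Skin appendages were uneven. In a list of follicle regulators and outer root sheath genes, 5 of 7 members measured were higher (1.77% of all genes measured were). Without the filter it was 5 of 20 (1.02% of all). These were Krt6a, Krt6b, Krt16, Krt17 and Krt79, all keratins. Krt79, of the upper follicle and its gland duct, had 67.0, 18.2, 29.1, 21.0, 9.21 and 10.6 FPKM in the skin-rich tumors against at most 0.0237 FPKM in the skin-poor ones (difference 4.43). Some of the regulators were low: Lhx2 did not exceed 0.370 FPKM and Shh did not exceed 0.0358 FPKM in any tumor. Sox9 overlapped, at 1.87 to 7.41 against 0.813 to 3.76 FPKM. Of 16 hair shaft keratins, 6 were listed at 0 in all 18 tumors, and the 1 measured, Krt87, overlapped at 0.882 to 2.04 against 1.22 to 2.86 FPKM. Of 56 keratin-associated proteins, which make up the hair matrix, 47 were listed at 0 in all tumors and none exceeded 0.190 FPKM. No inner root sheath gene reached a mean of 1 FPKM, and the highest value of the 13 was 0.548 FPKM.

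Sebaceous gland genes, which serve sebum synthesis, had a median difference of 0.37. Without the filter 4 of 17 were higher (1.02% of all genes were). With it, 1 of 7 members measured was higher, against 1.77% of all genes measured. That member was Fa2h, a fatty acid hydroxylase, with 19.3, 2.01, 7.47, 6.42, 1.50 and 4.24 FPKM in the skin-rich tumors against 0 to 0.0401 FPKM (difference 2.59). Below the filter, Awat1, a wax synthase of the gland, had 5.70, 1.12, 1.86, 1.39, 0.362 and 0.341 FPKM against 0, and Elovl3 ran from 0.337 to 5.76 against 0 to 0.0423 FPKM. All 3 were highest in PS473@CPs 2. Scd1, by contrast, was at 38.7 to 78.4 against 30.1 to 48.3 FPKM and overlapped. Without PS473@CPs 2, the median of the list was 0.25.

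Signals that keratinocytes send to immune cells ranged widely among the skin-rich tumors. In a list of keratinocyte cytokines and alarmins, 4 of 9 members measured were higher (1.77% of all genes measured were). Without the filter it was 6 of 19 (1.02% of all), and the median difference of those measured was 1.80. Il33, an alarmin of barrier cells, had 28.0, 28.9, 4.52, 6.42, 2.05 and 1.18 FPKM in the skin-rich tumors against 0.0804 to 0.824 FPKM (difference 2.57). Il36g, an interleukin of inflamed epidermis, had 2.20, 15.1, 1.92, 2.65, 1.13 and 0.318 FPKM against 0 in all skin-poor tumors (difference 1.77). Both were lowest in PS473@NKMOF-101-[Mn] 2, and Il36g was highest in PBS 2. S100a14 ran from 5.13 to 93.0 against 0 to 0.0959 FPKM, and Defb6, a beta-defensin, from 0.547 to 11.6 FPKM against 0.

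S100a8 and S100a9, the calprotectin subunits of neutrophils and of stressed keratinocytes, were among the larger differences and yet overlapped. S100a8 had 178, 252, 4.50, 77.9, 10.8 and 0.364 FPKM in the skin-rich tumors and 0 to 0.593 FPKM in the skin-poor ones (difference 4.32). S100a9 had 119, 209, 6.29, 70.5, 7.84 and 0.312 FPKM against 0 to 0.885 FPKM (difference 4.18). The overlap came from PS473@NKMOF-101-[Mn] 2 alone, at 0.364 and 0.312 FPKM. In Free PS473 3, between the sides, they were at 82.4 and 66.7 FPKM. Csf3r, a receptor that neutrophils carry, was at 0.578 to 0.955 FPKM in the skin-rich tumors and 0.0893 to 0.473 FPKM in the skin-poor ones, and the share of either cell type in the calprotectin values was not tested.

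The skin-rich tumors thus differed among themselves in the kind of keratin they carried. In the order of the score, Krt16 minus Krt1 on the log2(FPKM + 1) scale was 1.44, 2.20, -0.17, 1.57, -0.53 and -2.86. Krt16 exceeded Krt1 in PS473@CPs 2 and in both PBS tumors, and was below it in the 3 tumors that had received the framework. The 2 tumors with the highest score, PS473@CPs 2 and PBS 2, had no framework and the 2 with the lowest had it, while PBS 3 (1.57) and NKMOF-101-[Mn] 1 (-0.17) had scores of 7.16 and 7.31. The part of treatment and of the amount of skin in this split was not tested. The middle tumor Free PS473 3 had the highest such value of all 18 tumors, 4.47, with 103 FPKM of Krt16 and 3.66 FPKM of Krt1. NKMOF-101-[Mn] 3, also between the sides, had a value of 2.22, although it had received the framework.

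**Figure D4:**
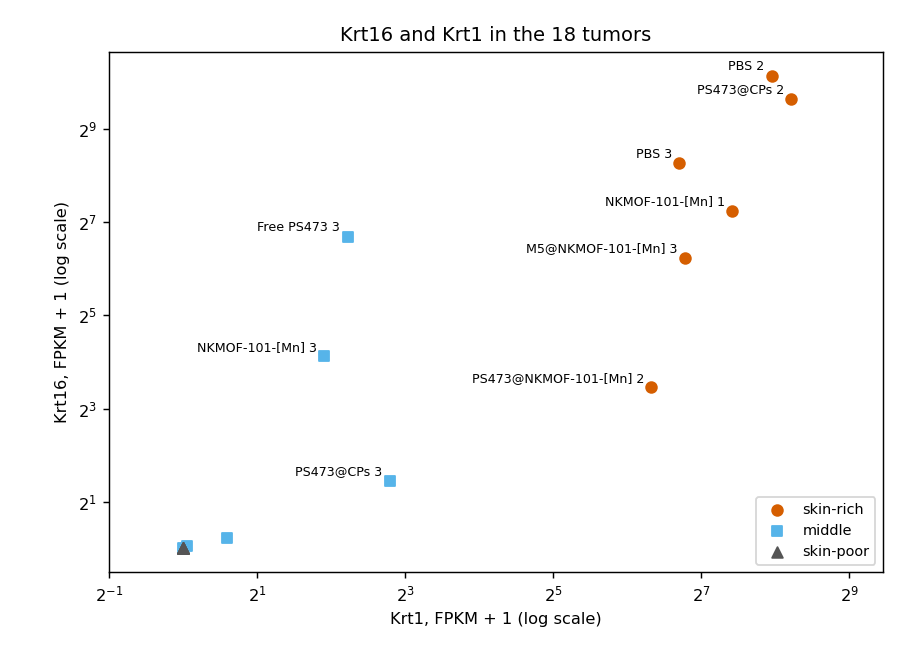
Level of Krt16 (vertical axis, FPKM + 1, log scale) against that of Krt1 (horizontal axis, FPKM + 1, log scale) in the 18 tumors, with the tumors above 4 on either axis named. PBS 2 and PS473@CPs 2 lie at the top right, PS473@NKMOF-101-[Mn] 2 has Krt1 at 79.3 FPKM but Krt16 at 10.0 FPKM, and Free PS473 3 has the opposite, 3.66 and 103 FPKM.

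Other genes split the skin-rich side in the same or the opposite direction. Sprr2d, a small proline-rich protein of the envelope, had 27.1, 176, 3.14, 15.8, 3.89 and 0.138 FPKM, highest in PBS 2 and near 0 in PS473@NKMOF-101-[Mn] 2. Lce3c, a late envelope protein that is induced in damaged skin, had 6.89, 29.7, 2.34, 4.96, 1.16 and 0.253 FPKM. Lce1m, a late envelope protein of another group, had 0.333, 0.809, 17.0, 1.80, 2.53 and 3.39 FPKM, highest in NKMOF-101-[Mn] 1 and below 1 FPKM in both tumors of the highest score. Krt77, a keratin of epidermis and sweat ducts, had 5.08, 0.283, 44.8, 5.15, 7.66 and 20.2 FPKM, and Krt15, a keratin of resting basal and follicle stem cells, had 14.7, 1.54, 21.9, 11.8, 2.71 and 11.4 FPKM. PBS 2 was the lowest of the 6 for both and NKMOF-101-[Mn] 1 the highest, the reverse of Sprr2d and Lce3c for PBS 2. Counting over all 219 genes, the highest value of the 18 tumors fell in PS473@CPs 2 for 105, in PBS 2 for 99 and in NKMOF-101-[Mn] 1 for 10.

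The same genes separated the sides within treatments. In the 4 treatments with a tumor on both sides, the skin-rich tumor or tumors lay above the skin-poor tumor of the same treatment for all 219 genes, which the rule that counts them already fixes. The size differed: 113 of the 219 exceeded a difference of 1 in each of the 4 treatments, and the median difference was 3.23 in PS473@CPs, 2.69 in PBS, 2.00 in NKMOF-101-[Mn] and 1.09 in M5@NKMOF-101-[Mn]. Krt16 differed by 9.65, 9.21, 7.24 and 6.24 in the same order of treatments. Among the 12354 genes, 128 exceeded 1 in all 4 treatments and 0 lay below -1 in all 4.

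Of the 219 genes, 72 were in the lists and 147 were not. Those outside were named after their values were seen. Besides Calm4 and the cystatin A-like genes they held Aqp3, a water and glycerol channel of basal cells, at 4.76 to 137 FPKM in the skin-rich tumors against 0 to 0.0442 FPKM in the skin-poor ones. Lgals7, an epithelial galectin, was at 55.4 to 1068 against 9.38 to 15.6 FPKM. The epithelial adhesion genes Cdh1 and Epcam were at 2.23 to 36.4 against 0.348 to 0.611 FPKM and 0.750 to 17.6 against 0 to 0.0969 FPKM. Evpl and Ppl, which link the envelope to desmosomes, ran from 0.961 to 13.0 and from 1.32 to 15.5 FPKM, against at most 0.0787 and 0.00792 FPKM. The splicing factors Esrp1 and Esrp2, of epithelial cells, were among them too, with differences of 1.98 and 1.14. Not all of them are keratinocyte genes: Fcgr4, an antibody receptor of myeloid cells, was at 8.10 to 18.8 against 1.28 to 7.92 FPKM.

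Genes that adjoin in the genome were often counted together. By gene order in RefSeq, 49 of the 210 placed genes (23.3%) stood beside another of the 219, against 1.57% of the 10451 placed genes that were measured and not counted. The longest runs were 7 kallikreins (Klk11, Klk10, Klk9, Klk8, Klk7, Klk6 and Klk5) and 5 late envelope genes (Lce1a1, Lce1b, Lce1a2, Lce1c and Lce1d), followed by 3 runs of 3 genes, among them Sbsn, Dmkn and Krtdap. Members of such families resemble each other, and reads shared between copies could carry 1 gene's value to its neighbor.

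Genes of dermal fibroblasts and matrix, which the stroma within a tumor also expresses, leaned to the skin-rich side. Of 16 measured, 12 were higher by more than 1, as were 3.21% of all genes measured. Higher without overlap were 2, against 2.52% of all genes measured, and the median of the list was 1.40. The part of dermis and of tumor stroma in these values was not tested. Dcn, decorin, had 40.0, 25.1, 26.8, 15.7, 5.79 and 11.1 FPKM in the skin-rich tumors and 1.15, 3.69, 0.139, 0.485, 0.166 and 1.20 FPKM in the skin-poor ones (difference 3.31). Lum, lumican, ran from 1.61 to 11.7 against 0.854 to 1.58 FPKM (difference 1.45). Col1a1, the main chain of dermal collagen, had 271, 292, 233, 112, 29.4 and 107 FPKM against 27.5, 96.2, 13.7, 18.7, 25.7 and 31.3 FPKM (difference 2.22). The overlap came from M5@NKMOF-101-[Mn] 3, at 29.4 FPKM, and from NKMOF-101-[Mn] 2 and M5@NKMOF-101-[Mn] 1, at 96.2 and 31.3 FPKM. Fbln1 did not follow, at 39.1 to 52.8 against 40.9 to 61.1 FPKM. The mean log2(FPKM + 1) of the 22 genes of this list was 3.03 ± 0.64 (SD, n = 6) on the skin-rich and 1.79 ± 0.43 (n = 6) on the skin-poor side, and the ranges overlapped.

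Of the other tissues that a piece could hold, none had a gene that was counted as higher, beside 1.77% of all genes measured. With 5 to 11 genes measured in each list, a count of 0 does not stand apart from that share. Adipocyte genes had a median difference of 0.85 over the 5 measured, and 0.51 without NKMOF-101-[Mn] 1. Skeletal muscle genes had 0.34 over 8, which was 0.10 without PBS 3, 0.18 without NKMOF-101-[Mn] 1 and 0.54 without NKMOF-101-[Mn] 2. Schwann cell genes had 0.02 over 6, and the sign changed when single tumors were left out. Endothelial genes had 0.74 over 11, all of them positive (38.7% of all genes measured were), with Pecam1 at 3.61 to 20.5 against 1.96 to 11.2 FPKM. Red blood cell genes had -0.31 over 6, but ran widely on both sides (Hba-a1 from 15.4 to 1466 against 22.9 to 5339 FPKM), and the median became 0.41 without PS473@NKMOF-101-[Mn] 2, 0.33 without PBS 1, 0.19 without Free PS473 1 and 0.91 with treatment as a term. Of 15 genes of other epithelia, none reached a mean of 1 FPKM.

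Immune genes leaned to the skin-rich side without separating it. All 18 leukocyte genes measured had positive differences (38.7% of all genes measured did), with a median of 0.86, which was 0.56 with treatment as a term. The list held 30 genes, and those under the filter are not part of this median. Of the 18 measured, 0 were counted, beside 1.77% of all genes measured, and without the filter 0 of 30 (1.02% of all). Csf1r, the growth factor receptor of macrophages, had 6.88, 8.34, 18.9, 7.59, 6.89 and 5.81 FPKM in the skin-rich tumors and 3.64, 7.27, 1.98, 3.44, 2.92 and 4.28 FPKM in the skin-poor ones (difference 1.00). The sides overlapped because of NKMOF-101-[Mn] 2. The mean of the list was 2.43 ± 0.22 (SD, n = 6) against 1.84 ± 0.36 (n = 6), and the middle tumors ran from 1.85 to 2.57. All 26 interferon-stimulated genes also had positive differences (38.7% of all genes measured did), with a median of 0.50. Of these 26, 0 were counted, beside 1.77% of all genes measured. Their mean was 3.60 ± 0.62 (n = 6) against 3.03 ± 0.55 (n = 6), it was 4.77 in PS473@NKMOF-101-[Mn] 2 alone, and the median difference was 0.30 without that tumor and 0.08 with treatment as a term. Irf7, a regulator of the interferon response, was at 34.8 FPKM in that tumor and at 6.24 to 16.4 FPKM in the other 5 skin-rich tumors, which included no other tumor of that treatment. Within treatments the direction of the interferon list mean was mixed. It was lower in PBS 2 and PBS 3 (3.05 and 3.08) than in PBS 1 (3.49), and 3.63 against 3.70 in M5@NKMOF-101-[Mn]. The skin-rich tumor was higher in PS473@CPs (3.53 against 3.11) and in NKMOF-101-[Mn] (3.52 against 3.01). Free PS473 1 and Free PS473 2, both skin-poor, had the lowest means, 2.63 and 2.21. Cd274, the gene of PD-L1, had 12.6, 15.7, 14.1, 12.3, 28.2 and 32.9 FPKM in the skin-rich tumors and 11.9, 14.6, 11.7, 12.3, 21.5 and 21.8 FPKM in the skin-poor ones (difference 0.23), and overlapped.

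**Figure D5:**
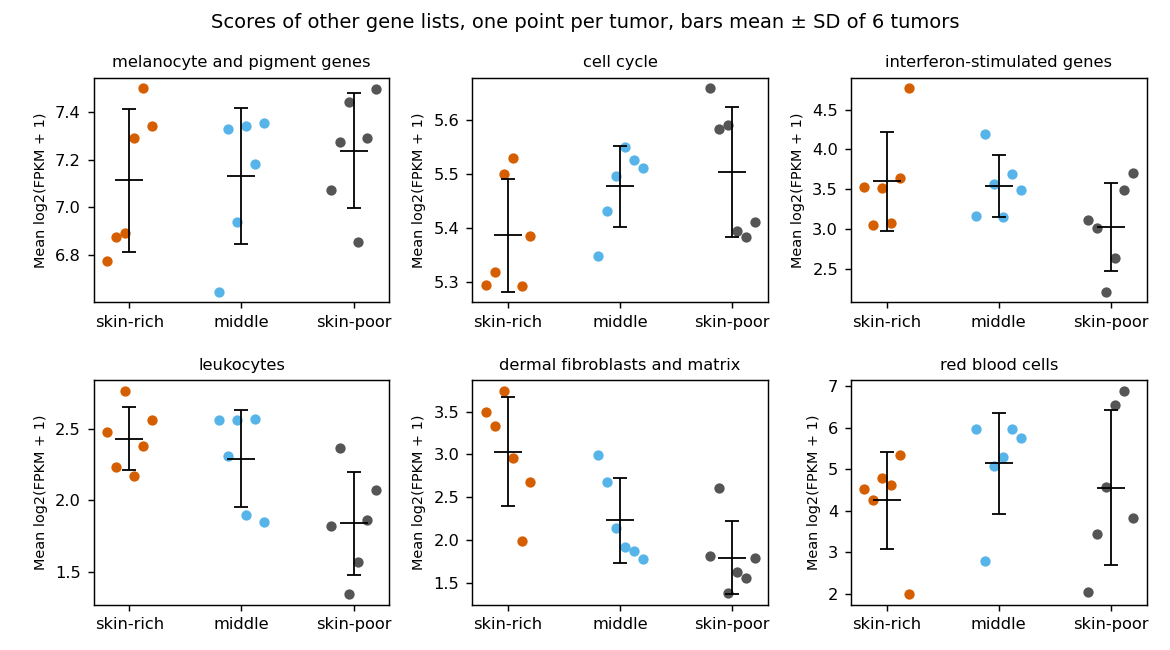
Mean log2(FPKM + 1) of 6 gene lists (panels, each with its own vertical axis that does not start at 0) in the skin-rich, middle and skin-poor tumors, 1 point per tumor, with mean ± SD of 6 tumors. The dermal list is at 3.03 ± 0.64 against 1.79 ± 0.43 and the leukocyte list at 2.43 ± 0.22 against 1.84 ± 0.36, and in all 6 panels the skin-rich and skin-poor points overlap.

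Tumor cell genes differed little. Negative differences were found for 61.3% of all genes measured. Of 18 melanocyte and pigment genes 15 had one, with a range of -0.26 to 0.03 and a median of -0.15, which ran from -0.22 (without M5@NKMOF-101-[Mn] 3) to -0.07 (without PS473@CPs 2) as each tumor was left out. Dct, a melanin synthesis enzyme, had 2087, 2342, 2167, 2616, 3416 and 2763 FPKM in the skin-rich and 2298, 2904, 2994, 2389, 3227 and 3185 FPKM in the skin-poor tumors. Mlana, a melanosome protein, ran from 524 to 817 against 555 to 911 FPKM. Of 28 cell cycle genes 27 had negative differences, with a median of -0.11, a list mean of 5.39 ± 0.10 (SD, n = 6) against 5.50 ± 0.12 (n = 6), and 0 counted. The 20 genes of hypoxia and glycolysis had a median of -0.07, and the sign changed with upper-quartile scaling and without PBS 1.

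No gene was counted as lower. The differences of the 82 genes that lay lower without overlap were small: the largest, -0.69, was that of Cort, the precursor of the neuropeptide cortistatin, with 1.81, 1.52, 1.29, 1.64, 3.00 and 3.29 FPKM in the skin-rich tumors and 3.44, 3.84, 3.57, 4.05, 4.70 and 3.60 FPKM in the skin-poor ones. Fitm1 and Reno1 came next, with differences of -0.57 and -0.51. Larger negative differences overlapped, such as that of Sumo2 (-1.56), which ran from 13.6 to 151 against 88.9 to 164 FPKM, and of Igkc (-0.97), the immunoglobulin kappa constant region, from 0.995 to 3.56 against 0.426 to 21.0 FPKM. The genes of this paragraph were chosen after their values were seen.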

How the data were processed

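RNA of 18 mouse tumors in 6 groups of 3 was measured. The authors deposited 1 table of FPKM values for 41079 genes, made from poly(A) libraries. The build was GRCm39 per the submitters' processing notes, while the aligner, counter and annotation are not given in the sources used here. Depth was estimated from the steps of the low values at 17212000 to 28401000 fragments a tumor. At that depth 49.3% to 54.0% of low values were whole fragments within 0.003 and 98.2% to 99.2% were multiples of 0.25 fragments within 0.005, so a step may be part of a fragment and counts were not recovered. No 2 tumors held identical values.

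Values were transformed to log2(FPKM + 1) with Python 3.11.15, numpy 2.4.6 and pandas 2.3.3, and genes with a mean of 1 FPKM or more were compared. No p-value is given between the sides. The 2 exact permutation tests of the skin score between treatments that had been planned are not reported, because the score chose the sides. Genes named are the 15 largest differences among those counted, the 10 largest among those counted as lower (of which there were 0), members of described lists, and Cd274. The others were chosen after their values were seen. The members and the 23 gene lists were chosen with earlier results of these data known. Alternatives were a pseudocount of 0.1, other filters, scalings, scores and side sizes, treatment or replicate number as a term, and leaving out each tumor. Promoters came from RefSeq on GRCm38.p6, of which no coordinates were joined to the FPKM values.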

Additional observations from a re-analysis of the deposited data

Results flagged for a closer look

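Of 69 sets of 6 values that were not all equal (the skin score, the scores of the lists, the 15 genes with the largest differences and Cd274, on each side), 4 sets had 5 values at 0, where any single value above 0 stands apart by construction. Among the other 65 sets, 4 held a tumor whose distance from the nearest other exceeded Dixon's critical share of the range for 6 values, a rule that chance meets in about 1 of 20 sets. On the skin-rich side, PS473@NKMOF-101-[Mn] 2 stood apart in the interferon-stimulated list, at a mean log2(FPKM + 1) of 4.77 against 3.05 to 3.63 in the other 5 tumors. The same tumor was the lowest in the red blood cell list, at 1.99 against 4.25 to 5.34. On the skin-poor side, NKMOF-101-[Mn] 2 had the highest score of the dermal list, 2.60 against 1.38 to 1.81. In the 4 sets with 5 values at 0 it was the 1 skin-poor tumor above 0, for Krt6a, Krt6b, Krt17 and Gm49428, with log2(FPKM + 1) of 0.0143, 0.0568, 0.0728 and 0.0177, values close to the detection limit. PBS 1 had the lowest basal keratinocyte score of the skin-poor side, 0.679 against 0.726 to 0.751.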

How the results depend on the processing

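The sides held the same 12 tumors under a pseudocount of 0.1, quantile normalization and upper-quartile scaling, and with a score of other keratinocyte genes 5 of 6 on each side. The 219 genes counted as higher numbered 206 to 302 when each of the 12 tumors was left out in turn, 377 with treatment as a term (211 shared), 489 with 4 against 4 tumors (218 shared) and 117 with 9 against 9 (all 117 shared). Genes counted as lower numbered 0 to 1 when 1 tumor was left out (Gm22573 without NKMOF-101-[Mn] 2), 1 with treatment as a term (Igkc), 1 with the other score and 2 with 4 against 4.

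A pseudocount of 0.1, which enlarges differences of low genes by construction, gave list medians of 4.64 (basal), 5.65 (suprabasal), 5.17 (cornified), 1.96 (barrier lipids), 10.2 (follicle and outer root sheath), 4.43 (cytokines and alarmins) and 1.99 (dermal). With 4 against 4 tumors the medians were 2.94 (basal), 3.06 (cornified), 8.12 (follicle), 2.01 (dermal), 1.41 (adipocytes) and -0.19 (Schwann cells), and with 9 against 9 they were 2.16 (suprabasal) and 5.79 (follicle). No filter, which admits more weakly expressed genes, gave 0.64 (barrier lipids), 0.36 (follicle), 1.07 (cytokines and alarmins) and 0.22 (adipocytes), and a filter at 0.1 FPKM gave 0.80 (follicle), 1.11 (cytokines and alarmins) and 0.43 (adipocytes). With treatment as a term the leukocyte median was 0.56. Leaving out 1 tumor, the adipocyte median ran from 0.51 to 0.94, and that of the follicle and outer root sheath list, 6.95, from 6.29 to 7.46. The 7 measured genes of the latter list include Krt6a, Krt6b, Krt16 and Krt17, the keratins of wounded epidermis.

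With the replicate number as a block, 282 genes were counted as higher (192 shared) and 0 as lower, and the adipocyte median was 1.17. Nothing in the labels says that the numbers pair tumors. Deviations of same-numbered tumors from their group means correlated from -0.72 to 0.72 (median -0.02). With 3 tumors a group, these correlations cannot decide whether same-numbered tumors were handled together. The red blood cell median, -0.31, was 0.91 with treatment as a term, 0.11 with the other score and up to 0.41 when 1 tumor was left out. The Schwann cell median, 0.02, was below 0 in 9 of 22 alternatives, and the hypoxia and glycolysis median, -0.07, above 0 in 2. Among the list medians, the values not given here kept their sign and moved by less than the spread between tumors. The cause of the moved values was otherwise not tested. Genes under about 1 FPKM rest on few fragments.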
